A study of Homo sapiens with 16 samples.

Results

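H2023 cells labelled as a ZC3H12A knockout were compared with wild-type H2023 cells after 3 days in normal culture. H2023 is an established human line of non-small cell lung cancer. The comparison rests on 4 of the 16 RNA-seq libraries of the series, 2 wild type and 2 labelled knockout, and covers all 18227 genes of the deposited table. The other libraries hold the same line kept for 7 days under a stem-cell-enriched, or oncosphere, condition, and A549 cells, another such lung cancer line, in both cultures. Both libraries labelled knockout come from 1 clone (Clone2-2), so a difference from wild type carries whatever else sets that clone apart, and the edit and the clone cannot be told apart. The labels do not say whether the 2 libraries of a group came from separate cultures, so p-values measure the spread between these libraries, which may be technical.

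ZC3H12A encodes Regnase-1, an RNase that cuts stem-loop structures in selected mRNAs and so shortens their lives. Its known targets include messages of inflammation and immune activation, and its own message is among them. Regnase-1 is itself degraded when inflammatory signalling starts, which lets its targets accumulate. It is best known as a brake on cytokine messages.

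Expression is given as TPM, an abundance per transcript that allows for gene length and library size but keeps no record of sequencing depth. The 4 libraries each had 14202 to 14380 genes at 1 TPM or more, and replicates correlated across genes with r = 0.983 in wild type and 0.990 in the libraries labelled knockout. Mitochondrially encoded genes took 10.3% and 12.6% of TPM in wild type and 10.5% and 12.3% in the others. The 10 measured epithelial identity markers, led by KRT8 and KRT18, summed to 8952 and 9611 TPM in wild type and to 12478 and 13206 TPM in the libraries labelled knockout. Those sums rest mostly on KRT8 and KRT18. On the log2 scale 7 of the 10 markers lay lower with the knockout label and 3 higher, with a median difference of -0.13. Of the lung adenocarcinoma markers only NAPSA, at 1.02 to 1.90 TPM, and ROS1, at 0.02 to 0.07 TPM, were measured. The 4 measured leukocyte markers summed to 34.4 to 41.6 TPM, the 5 fibroblast markers to 3.51 to 10.3 TPM and the 2 endothelial markers to 3.57 to 6.93 TPM.

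The targeted gene was read first. ZC3H12A (ENSG00000163874, chr1:37474552-37484379 in GRCh38) stood at 26.8 and 29.9 TPM in wild type and at 41.5 and 41.5 TPM in the libraries labelled knockout. The message was thus higher, not lower, in both libraries labelled knockout, and the groups did not overlap. The difference was 0.54 ± 0.17 on the log2 scale (SE, n = 2 per group) and did not pass the test (limma adjusted p = 0.214). In the authors' deposited table its adjusted p was 0.0080. The edit and the protein were not examined, so the libraries are named by their label and every direction below is that label's.

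Across all genes, limma called 147 of 18227 (0.806%) different at an adjusted p under 0.05. Of these, 47 (0.258% of genes tested) were higher and 100 (0.549%) were lower in the libraries labelled knockout. Differences are in log2(TPM + 1), which understates the change of low genes, and in the called genes they ran from -5.06 to 2.32. A difference of at least 1 was reached by 34 of the genes that rose and 70 of those that fell, and 133 of the 147 were protein coding. In all 147 the 2 groups did not overlap, which their choice by p-value on these libraries nearly ensures. The same held for 50.6% of all genes. The calls rest on a spread estimated from all 8 H2023 libraries, both cultures included. A fit on the 4 libraries alone called 0 genes, with 3314 (18.2%) at an unadjusted p under 0.05 against 3000 (16.5%) in the 8-library fit. With 1 of the 4 libraries left out, a group is down to 1 library, and few or none of the calls were kept. Of the 147, 0 were kept without replicate 1 labelled knockout and 1 without replicate 2, and 18 were kept without wild-type replicate 1 and 0 without wild-type replicate 2. All 147 kept their direction each time. The authors' deposited table lists 1665 of 15400 genes (10.8%) at an adjusted p under 0.05, among them 137 of the 147.

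**Figure D1:**
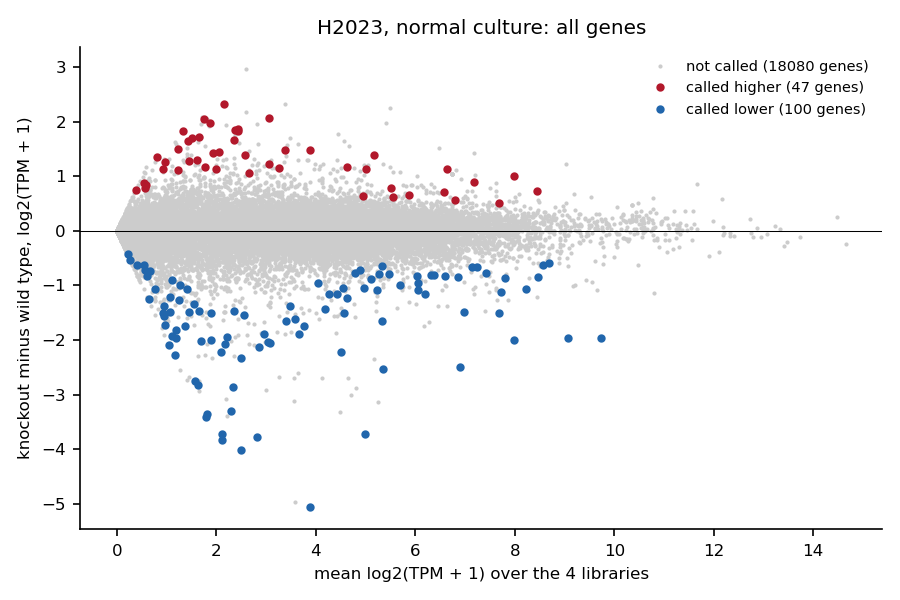
Each point is 1 gene, with its mean log2(TPM + 1) over the 4 libraries on the x axis and the difference, libraries labelled knockout minus wild type, on the y axis. The 100 genes called lower reach -5.06, and the 47 called higher reach 2.32.

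The deepest falls took genes from clear expression to nearly nothing. HPD (chr12:121839527-121863596), which encodes an enzyme of tyrosine breakdown, stood at 66.2 and 108 TPM in wild type and at 1.81 and 1.33 TPM in the libraries labelled knockout. That is a difference of -5.06 ± 0.40 (limma adjusted p = 0.0120), the largest of the called genes. TM4SF20 (chr2:227362156-227381995), a 4-pass membrane protein, had 21.2 and 22.3 TPM against 0.31 and 0.49 TPM and the smallest adjusted p of all (difference -4.02 ± 0.17, limma adjusted p = 0.00371). NLRP1 (chr17:5499427-5619424), an inflammasome sensor, had 19.3 and 12.2 TPM against 0.16 and 0.13 TPM. In each of these genes the wild-type libraries lay many-fold above both others.

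PPARGC1A, the coactivator PGC-1alpha that drives mitochondrial biogenesis, was at 10.8 and 19.6 TPM, against 0.21 and 0.16 TPM with the knockout label (difference -3.72 ± 0.51). ANXA10, an annexin, had 136 and 95.1 TPM against 7.36 and 8.0 TPM (-3.73 ± 0.42). F5, coagulation factor V, had 11.2 and 9.38 TPM against 0.05 and 0.06 TPM (-3.42 ± 0.28). BST2, the interferon-induced restriction factor tetherin, had 16.6 and 12.6 TPM against 1.01 and 0.22 TPM (-3.30 ± 0.32). The other genes among the 12 largest falls were CNTN1 (-3.79) and NRCAM (-2.83), both neural adhesion proteins, TC2N (-3.35), ITGA4 (-2.85), the integrin alpha 4 chain, and MUC5B (-2.75), an airway mucin. Adjusted p-values of these 12 ran from 0.00371 to 0.0426 (limma).

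The largest rises began from low levels. SPOCK1 (chr5:136975298-137598379), a matrix proteoglycan, stood at 0.97 and 1.01 TPM in wild type and at 8.82 and 9.05 TPM in the libraries labelled knockout (difference 2.32 ± 0.20, limma adjusted p = 0.0148). KCNMA1, the pore of the large-conductance calcium-activated potassium channel, had 3.16 and 2.98 TPM against 15.5 and 16.8 TPM (2.07 ± 0.25). GLI3, a transcription factor of the Hedgehog pathway, had 0.73 and 0.32 TPM against 4.27 and 3.27 TPM (1.65 ± 0.19). Among them were RNAs that code for no protein, LINC01193 (2.05), PCED1B-AS1 (1.84) and MEG3 (1.71), an imprinted transcript. The other 6 were ISM1 (1.98), ZG16B (1.86), TSPAN5 (1.85), TM4SF18 (1.83), AGMO (1.72), an enzyme that cleaves ether lipids, and AFAP1L2 (1.66). Adjusted p-values of the 12 ran from 0.0148 to 0.0463 (limma).

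**Figure D2:**
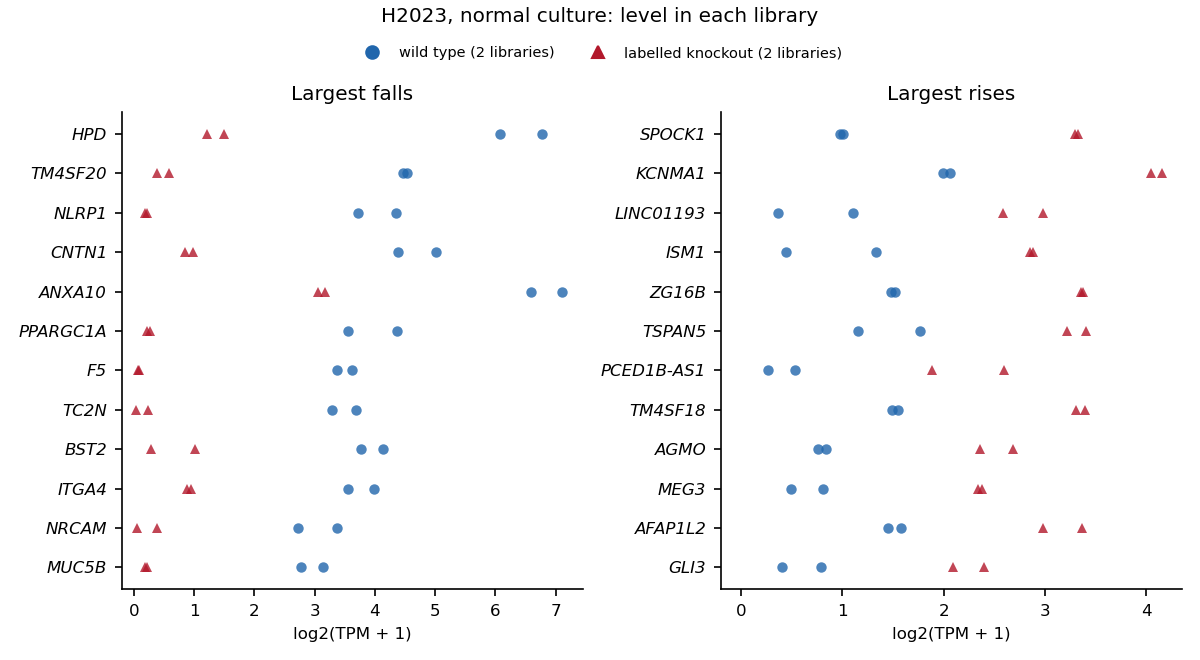
Level of the 12 genes with the largest fall and the 12 with the largest rise, in log2(TPM + 1) on the x axis, 1 point per library. Circles are the 2 wild-type libraries and triangles the 2 labelled knockout. The 24 genes were taken only from called genes whose groups do not overlap.

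Several abundant genes were among those that fell. CES1, a carboxylesterase that hydrolyses esters of drugs and lipids, stood at 1443 and 1939 TPM in wild type and at 395 and 460.2 TPM in the libraries labelled knockout (difference -1.97 ± 0.23, limma adjusted p = 0.0321). S100P, a secreted calcium-binding protein, had 864 and 1292 TPM against 251 and 289 TPM (-1.97 ± 0.29). NAMPT, which makes the NAD precursor nicotinamide mononucleotide, had 477 and 539 TPM against 124 and 129.6 TPM (-1.99 ± 0.29). C1S, a protease of the complement cascade, fell by 1.07 and SRGN, the granule proteoglycan serglycin, by 1.13 on the log2 scale. IDH1, the cytosolic isocitrate dehydrogenase, was at 217 and 203 TPM against 76.9 and 72.2 TPM (-1.48 ± 0.10). Of the genes that rose by at least 1, the 6 with the highest mean TPM were CAV1, AXL, FHL1, IFIH1, SLCO4A1 and HAS3. They rose by 1.01 (CAV1) to 1.48 (HAS3, a hyaluronan synthase), and HAS3, at 7.69 and 7.86 TPM against 24.7 and 22.3 TPM, lay far below the level of CES1.

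Most listed genes of the antioxidant programme driven by NRF2 lay lower, though few passed the test, and the activity of NRF2 was not measured. NRF2 is a transcription factor that KEAP1 holds in check, and it switches on glutathione synthesis, thioredoxin and detoxifying enzymes at antioxidant response elements in their promoters. Of 40 measured genes of the list of NRF2 targets and glutathione enzymes, 3 fell, 0 rose and 37 did not pass the test. The median difference was -0.26 against 0.01 over all genes, and 34 of 40 were below 0. In 25 of 40 (62.5%) both libraries labelled knockout lay under both wild-type libraries, against 24.5% of all genes, and in 2 (5.0%) both lay above, against 26.1%.

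GPX2, a glutathione peroxidase, stood at 275 and 289.6 TPM in wild type and at 51.8 and 46.5 TPM in the libraries labelled knockout (difference -2.50 ± 0.19, limma adjusted p = 0.0120). EPHX1, the microsomal epoxide hydrolase, had 313 and 383 TPM against 132 and 112 TPM (-1.50 ± 0.16, limma adjusted p = 0.0273). GCLM, the modifier subunit of the enzyme that limits glutathione synthesis, had 148.5 and 162 TPM against 86.9 and 84.97 TPM (-0.85 ± 0.11, limma adjusted p = 0.0362). GCLC, the catalytic partner of GCLM, had 422 and 254 TPM against 421 and 376 TPM, with overlapping groups. In the 3 called genes the gap between the groups was wider than the gap between replicates, and in GCLC it was not.

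Several abundant members named after their values were seen did not pass the test. AKR1B10, an aldo-keto reductase, had 2299 and 3032 TPM against 1108 and 1287 TPM (difference -1.14, limma adjusted p = 0.0650). TXNRD1, thioredoxin reductase, had 912 and 973 TPM against 663 and 623 TPM (-0.55, adjusted p = 0.0659), and GSR, glutathione reductase, had 331 and 311 TPM against 221 and 216 TPM (-0.55, adjusted p = 0.0564). NFE2L2, the gene of NRF2 itself, had 111 and 118 TPM against 80.4 and 81.4 TPM (-0.49, adjusted p = 0.122). KEAP1 stood at 101 and 101 TPM against 104 and 107 TPM, and NQO1, a quinone reductase often read as the marker of the programme, at 1975 and 1634 TPM against 1659 and 1741 TPM. The list's genes therefore did not move as a block, with NQO1 and TKT overlapping between the groups.

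**Figure D3:**
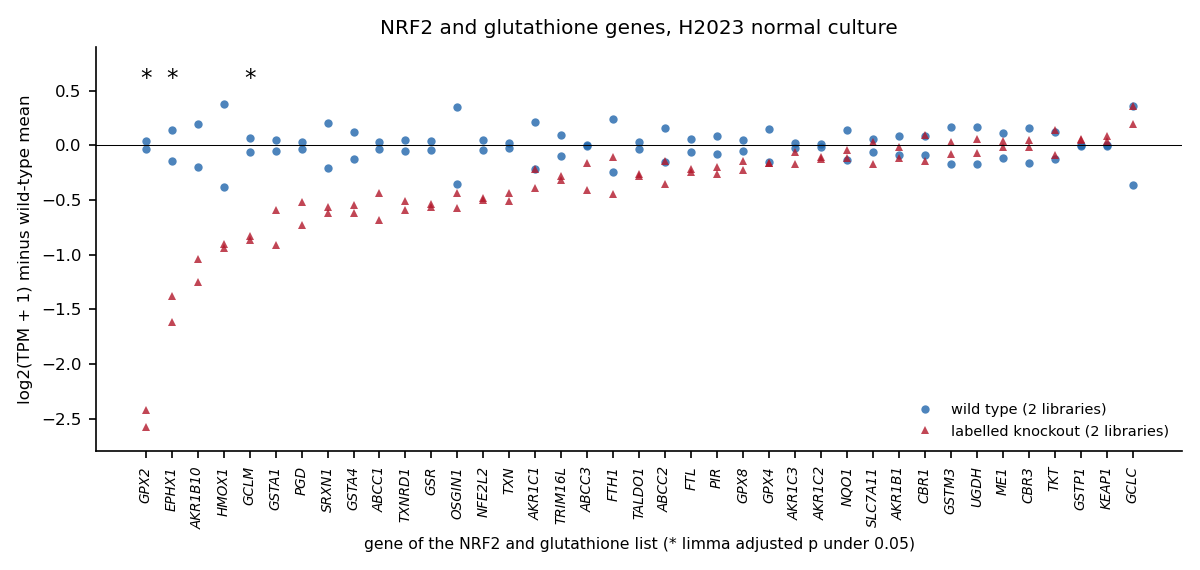
The measured genes of the NRF2 and glutathione list on the x axis (1 of the 40 is not drawn), ordered by their difference, with each library's log2(TPM + 1) minus the wild-type mean on the y axis. Stars mark GPX2, EPHX1 and GCLM, the 3 genes past the test, and 25 genes have both triangles (labelled knockout) under both circles (wild type).

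The core letters of the antioxidant response element, TGACNNNGC, were searched for on both strands in RefSeq promoter windows of GRCh38.p14, from 250 bases before to 50 bases after a gene's start. The search was made after the values were seen. Of 27305 genes with a window, 4384 (16.1%) held the letters at least once. Only 30 of the 40 list genes had a window, so a share over the list is void. The stretches around the match in the 3 called genes are shown because they let the letters be compared. Each runs 5′ to 3′ on the gene's own strand, with the match in capitals and 10 bases on either side.
GPX2: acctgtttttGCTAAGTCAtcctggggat
EPHX1: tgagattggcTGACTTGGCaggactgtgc
GCLM: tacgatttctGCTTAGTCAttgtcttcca
They lie at chr14:64942849-64942877 on the minus strand, chr1:225825266-225825294 on the plus strand and chr1:93909446-93909474 on the minus strand. The match starts 122 bases before the start of GPX2, 78 before that of EPHX1, in 1 of its 3 windows, and 34 before that of GCLM. In GPX2 and GCLM the letters read in reverse. A match describes the letters and is no evidence of binding.

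Drug and retinoid metabolism genes gave 0 calls among 35 measured. Their median was -0.33, with 19 of 35 (54.3%) lower and 8 (22.9%) higher in both libraries labelled knockout, against 24.5% and 26.1% of all genes. Outside the list, called genes of redox or drug handling included POR (-0.83), the reductase that feeds electrons to cytochromes P450, and BLVRB (-0.84), biliverdin reductase B. GSTM4 (-1.05), a glutathione transferase with close relatives that can share reads, was also called. These 3 were chosen after their values were seen. HPD and HGD act in the same route, the breakdown of tyrosine, and HGD fell from 51.3 and 55.5 to 22.0 and 27.4 TPM (-1.09 ± 0.12).

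Of 27 measured Regnase-1 targets, 0 passed the test in either direction, where 0.806% of all genes did, and the median was -0.03. In both libraries labelled knockout 9 (33.3%) were higher and 7 (25.9%) lower, near the 26.1% and 24.5% of all genes. PTGS2, which encodes the prostaglandin synthase COX-2, was at 11.99 and 7.55 TPM, against 2.08 and 1.56 TPM with the knockout label (difference -1.91, limma adjusted p = 0.128). CXCL8, the neutrophil chemokine IL-8, had 6.55 and 9.03 TPM against 2.37 and 2.71 TPM (-1.30, adjusted p = 0.301). IL6, a classic target, was barely detected, at 0.81 and 0.82 TPM against 0.00 and 0.16 TPM. On the higher side lay NFKBIZ, an NF-kB cofactor, at 2.80 and 2.66 TPM against 6.15 and 4.55 TPM (0.76, adjusted p = 0.260), and EGR1, an immediate early factor, at 1.66 and 1.07 TPM against 4.32 and 14.2 TPM (1.94, adjusted p = 0.306). The 2 EGR1 values with the knockout label lay far apart.

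The most abundant listed targets were ID1, an inhibitor of helix-loop-helix factors, and TFRC, the transferrin receptor. ID1 had 423 and 544 TPM against 291 and 376 TPM, and TFRC 234 and 241 TPM against 282 and 232 TPM, with adjusted p-values of 0.745 and 0.763. CCND1, the G1 cyclin D1, had 63.1 and 72.1 TPM against 79.5 and 105 TPM (0.43, adjusted p = 0.409). The list of NF-kB response genes likewise gave 0 calls among 24, with a median of 0.04. Of 28 measured chemokines, cytokines and their receptors 1 passed, ACKR3, a scavenging chemokine receptor, at 15.6 and 16.8 TPM against 2.90 and 3.43 TPM (-2.05 ± 0.17).

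In the interferon response list 1 of 40 genes rose and 1 fell. IFIH1, the RNA sensor MDA5, rose from 24 and 17.9 to 43.8 and 49.6 TPM (1.13 ± 0.16, limma adjusted p = 0.0444), and BST2 fell as given above. The median was 0.11, and 12 (30.0%, against 26.1% of all genes) were higher and 5 (12.5%, against 24.5%) lower in both libraries labelled knockout. OAS1, an antiviral nucleotide synthase, had 16.3 and 11.4 TPM against 30.9 and 29.7 TPM (1.10, adjusted p = 0.140). Outside the list IFNGR1, a chain of the interferon gamma receptor, fell from 48.1 and 51.0 to 27.3 and 29.4 TPM (-0.79 ± 0.11).

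Caveolae are flask-shaped pits of the plasma membrane built by caveolins and cavins. The 3 called genes of the 36 measured in the list that holds the caveola genes were CAV1, CAV2 and CAVIN1, and all 3 rose. CAV1 (chr7:116524785-116561184) went from 173 and 179 to 357 and 355 TPM (1.01 ± 0.08, limma adjusted p = 0.0120). Its neighbour CAV2 (chr7:116287380-116508541) went from 91.4 and 89.3 to 129.9 and 139 TPM (0.57 ± 0.08), and CAVIN1, on another chromosome, from 167 and 177 to 246 and 244 TPM (0.50 ± 0.07). Over the whole list the median was 0.05, with 15 of 36 (41.7%, against 26.1% of all genes) higher and 9 (25%, against 24.5%) lower in both libraries labelled knockout.

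Genes of the epithelial-mesenchymal transition did not move together. Of 37 measured, 2 rose, SPOCK1 and AXL, 0 fell, and the median was 0.04. AXL, a receptor tyrosine kinase, went from 63.5 and 69.1 to 156 and 139 TPM (1.14 ± 0.13, limma adjusted p = 0.0317). In the list of epithelial junction genes 1 of 34 passed, SPINT2, an inhibitor of membrane-bound serine proteases, which rose from 277 and 262 to 448 and 449 TPM (0.73 ± 0.08). Keratins gave 0 calls among 14. KRT18 stood at 2674 and 2204 TPM against 4515 and 4273 TPM (0.86, adjusted p = 0.0655), its partner KRT8 at 4190.3 and 3374 TPM against 5982 and 5378 TPM (0.59, adjusted p = 0.186), and KRT19 at 374 and 258 TPM against 126 and 130.5 TPM (-1.27, adjusted p = 0.0895).

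Among genes used as markers of cancer stem cells, 1 of 27 passed. ABCG2, a drug efflux pump that marks side-population cells, fell from 23.8 and 23.7 to 5.62 and 7.26 TPM (-1.74 ± 0.21, limma adjusted p = 0.0328). The median was -0.02, with 9 (33.3%, against 26.1% of all genes) higher and 9 (33.3%, against 24.5%) lower in both libraries labelled knockout. ALDH1A1, the aldehyde dehydrogenase of that marker set, had 1568 and 1293 TPM against 2369 and 1988 TPM (0.61, adjusted p = 0.359), and CD44, a hyaluronan receptor, 229 and 184 TPM against 302 and 293 TPM (0.54, adjusted p = 0.405). NOTCH3 had 140.3 and 181 TPM against 70.0 and 52.3 TPM (-1.38, adjusted p = 0.133). BMI1, a Polycomb subunit, had 135 and 76.2 TPM against 216 and 202 TPM (1.03, adjusted p = 0.153), and COMMD3, next to it and joined to it in read-through transcripts, rose from 114 and 96.6 to 179 and 212 TPM (0.89 ± 0.13). Reads of that pair may be split between them.

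The calls in the lists of blood and airway proteins were all falls, where 0.549% of all genes were called lower and 0.258% higher. Of 37 coagulation, complement and acute-phase genes 2 fell, F5 among them, and 0 rose, with a median of -0.32. In both libraries labelled knockout 18 (48.6%) lay lower and 9 (24.3%) higher, against 24.5% and 26.1% of all genes. Outside that list CFI, a protease that regulates complement, fell from 15.5 and 15.7 to 3.36 and 2.76 TPM (-2.04 ± 0.19), and C1S fell as given above. The fibrinogen chains FGA, FGB and FGG differed by -1.05, -1.06 and -1.74, with adjusted p-values of 0.0922, 0.173 and 0.0860, and complement C3 and C5 by -1.26 and -1.42, with adjusted p-values of 0.104 and 0.123. SAA1, an acute-phase protein with a near-identical relative, lay higher, at 2.16 and 3.50 TPM against 10 and 8.84 TPM (1.46, adjusted p = 0.207).

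Of 20 measured lung secretory and alveolar genes 2 fell, TM4SF20 and MUC5B, 0 rose, and the median was -0.13. In both libraries labelled knockout 9 (45%) lay lower and 2 (10%) higher, against 24.5% and 26.1% of all genes. MUC5B had 5.86 and 7.76 TPM against 0.16 and 0.14 TPM. AGR2, a folding factor for mucins, had 1322 and 1028 TPM against 548 and 548 TPM (-1.09, adjusted p = 0.0845), and SLPI, a secreted antiprotease, 212 and 367 TPM against 109 and 93.2 TPM (-1.46, adjusted p = 0.0895). The 2 called members of 23 S100 proteins and annexins were ANXA10 and S100P, both lower, with a list median of -0.20 (-0.06 with the window medians of chromosomal position, given later, taken out).

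Adhesion and channel genes changed singly. Of 28 protocadherins and neural adhesion genes 3 fell, NRCAM, SEMA3E (-2.27) and PCDH7 (-2.10), and 1 rose, CDH4 (1.29). Of 20 gap junction and channel genes KCNMA1 rose, KCNJ2, an inward rectifier channel, fell from 2.30 and 2.36 to 0.06 and 0.20 TPM (-1.56 ± 0.13), and GJA1, connexin 43, fell from 20.8 and 22.8 to 10.4 and 11.3 TPM (-0.95 ± 0.13). KCNJ2-AS1, which overlaps KCNJ2 on the other strand, fell with it (-0.82), and reads of the pair may not be fully separated. GJB2, connexin 26, was just outside the threshold at 1.95 and 0.60 TPM against 14.1 and 18.2 TPM (2.97 ± 0.45, adjusted p = 0.0512). Of 39 laminins, collagens and matrix enzymes COL13A1 (1.51) and ADAM19 (1.18) rose and COL4A3 (-1.95) fell, and COL4A4, the head-to-head neighbour of COL4A3, had 9.14 and 13.5 TPM against 2.95 and 2.51 TPM (-1.71, adjusted p = 0.0574).

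Other signalling lists held 1 call or none. GLI3 was the only call among 16 Hedgehog genes. ID4 (-1.07) was the only call among 40 genes of TGF-beta and BMP signalling, ITGA4 the only call among 19 integrins and HOXC13 (-1.47) the only call among 27 HOX genes. The lists of G1/S and G2/M genes gave 0 calls among 35 and 36, with medians of 0.13 and 0.12. Of each, 18 members lay higher in both libraries labelled knockout (51.4% and 50%, against 26.1% of all genes), and 4 and 5 lay lower (11.4% and 13.9%, against 24.5%). The list of ER stress and ATF4 genes gave 0 calls among 33 with a median of -0.21, and 13 of its members (39.4%, against 24.5% of all genes) were lower and 3 (9.09%, against 26.1%) higher in both libraries labelled knockout. Lists of mRNA decay factors, endoderm and lung lineage factors, the Wnt, Notch and p53 pathways, EGFR and ERK feedback, immediate early genes, hypoxia and glycolysis, cholesterol and fatty acid synthesis, neuroendocrine peptides, cancer-testis antigens, metallothioneins and mitochondrially encoded genes gave 0 calls each, with medians from -0.39 for the 21 neuroendocrine genes to 0.05 for the 26 decay factors.

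The differences also varied with position in the genome, a pattern looked for after the values were seen. In the 10896 genes with a mean of at least 5 TPM, the median difference was 0.02 and 46.3% lay below 0. In the 481 such genes of chromosome 1 beyond 140 Mb the median was -0.35 and 92.7% lay below 0, while the first 140 Mb gave -0.10 over 636 genes. Chromosome 2 gave -0.24 over 711 genes, with 84.8% below 0, and its part beyond 140 Mb gave -0.33. Chromosome 7 beyond 100 Mb gave -0.25 over 218 genes and chromosome 22 gave -0.22 over 259. Chromosome 6 went the other way, with a median of 0.24 over 517 genes and 83.8% above 0.

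Both libraries labelled knockout showed these shifts. Against the wild-type mean, chromosome 1 beyond 140 Mb had medians of -0.28 and -0.41, and chromosome 6 had 0.28 and 0.21. The 2 wild-type libraries differed from each other there by a median of 0.07 and -0.05. Over 148 windows of 20 Mb the medians ran from -0.41 to 0.30, while the 2 wild-type libraries differed by -0.36 to 0.23 over the same windows. In stem-cell-enriched culture, in other libraries of the same clone, the same stretches of chromosomes 1, 2 and 6 gave -0.26, -0.22 (all of chromosome 2) and 0.35, and in A549 -0.09, 0.16 and -0.08. DNA copy number was not measured, and its part in these shifts was not tested.

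**Figure D4:**
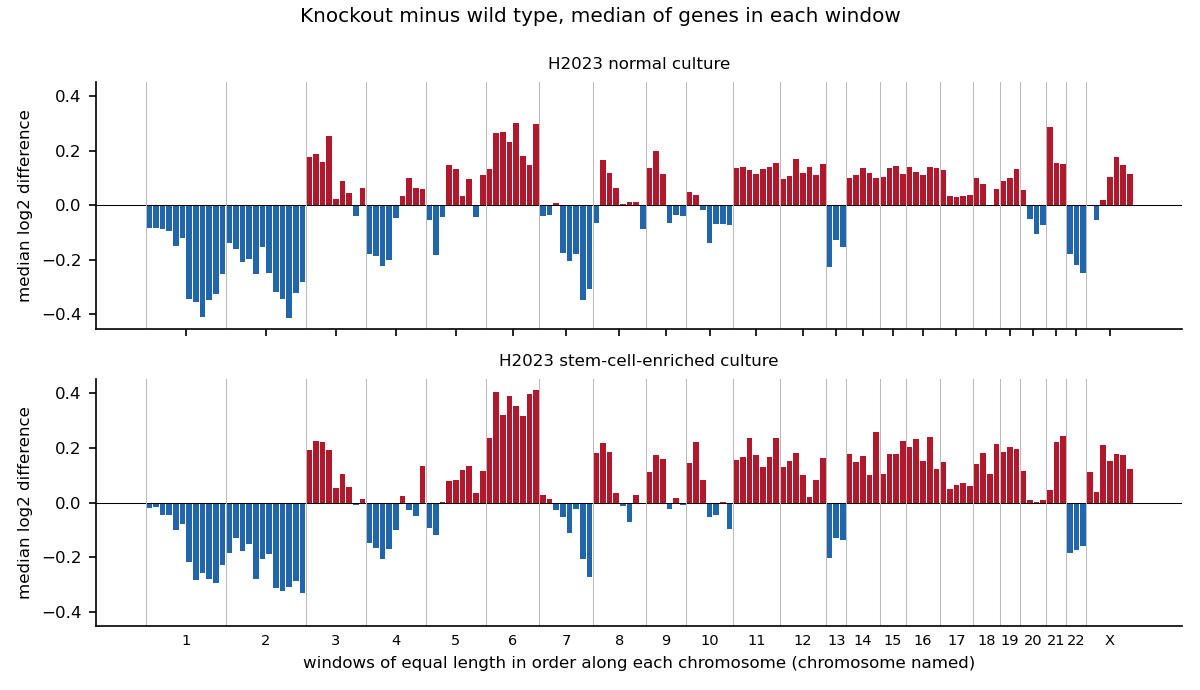
Median difference, libraries labelled knockout minus wild type in log2(TPM + 1), of the genes in each of 148 windows of 20 Mb, in order along the named chromosomes, for normal culture (top) and stem-cell-enriched culture (bottom). The long end of chromosome 1, chromosome 2 and chromosome 22 lie below 0 and chromosome 6 above 0 in both panels.

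Some calls sit within these stretches. At a mean of at least 5 TPM, 10 of the 481 genes of chromosome 1 beyond 140 Mb were called lower. On chromosome 2 beyond 140 Mb 10 of 278 were, against 63 of all 10896 such genes. With each window's median taken out of the libraries labelled knockout, limma called 111 genes (0.609%), 98 of the 147 among them, and all 147 kept their direction. Among calls lost were HSPD1 and HSPE1, the head-to-head pair on chromosome 2 (chr2:197486581-197516737 and chr2:197499994-197503457) that encodes the mitochondrial chaperonin and its partner. HSPD1 went from 511 and 499.9 to 336 and 334 TPM (-0.59), and HSPE1 from 482 and 456 to 295 and 309.7 TPM (-0.63). With the windows taken out these differences were -0.18 and -0.22. With the windows taken out EPHX1 differed by -1.17 (limma adjusted p = 0.0489) and GCLM by -0.70 (adjusted p = 0.0627), on either side of the threshold, and GPX2 kept its call. The NRF2 list median was then -0.30. Among the other list medians given singly, those that moved by over 1.5 times or changed sign were those of the Regnase-1 targets (to 0.08), the mRNA decay factors (to -0.02), the EMT genes (to 0.14), the lung secretory genes (to -0.31), the S100 proteins and annexins (to -0.06) and the list with the caveola genes (to 0.03). The list of MHC genes and checkpoint ligands, many of them on chromosome 6, had a median of 0.17 with 0 calls among 32, and -0.10 with the windows taken out. In that list HLA-C, a class I chain with close relatives, had 339 and 354 TPM against 381 and 385 TPM (0.14, adjusted p = 0.509), and B2M, its partner, 799 and 800.5 TPM against 779 and 866 TPM (0.04, adjusted p = 0.975). Both turned negative with the windows taken out.

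The same clone against wild type in stem-cell-enriched culture was set beside these results, in 4 other libraries, where 281 genes (1.54%) were called. Of the 100 genes that fell in normal culture, 88 were below 0 there, against 41.0% of all genes, and 45 were called lower, against 0.746% of all genes. Of the 47 that rose, 43 were above 0, against 58.5% of all genes, and 20 were called higher, against 0.796%. The call counts share 1 estimate of each gene's spread with the normal-culture fit, so they are not independent of it. The median of the genes that fell went from -1.47 to -0.77 and that of the genes that rose from 1.23 to 0.70. The genes were chosen for large differences in normal culture, so the smaller medians do not show a weaker effect in the other culture. The Regnase-1 targets, with a median of -0.03 and 0 calls in normal culture, had a median of 0.34 in stem-cell-enriched culture, with 4 of 27, ZC3H12A among them, called higher and 0 lower. The NRF2 list had a median of -0.06 there, with 1 of 40 called lower and 0 higher.

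The test of the difference between the cultures called 0 of 18227 genes (0%), with 1294 (7.10%) at an unadjusted p under 0.05, and a smallest adjusted p of 0.193. With all 16 libraries in the fit 1 gene was called, GPX2. GPX2 differed by -2.50 in normal culture and by 0.26 in stem-cell-enriched culture. Other genes that fell in normal culture and lay near 0 in the other were CES1 (-0.10) and MUC5B (0.08), and among those that rose CAV1 (-0.10) and SPOCK1 (0.19), none of them past the test of the difference. HPD (-4.51), TM4SF20 (-5.00), CNTN1 (-4.15), PCDH7 (-2.37) and KCNMA1 (2.61) were called in both cultures. IFNGR1, lower in normal culture, was called higher in the other (0.68). ZC3H12A itself differed by 1.43 in stem-cell-enriched culture (limma adjusted p = 0.0284).

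The same comparison in A549 gave other values for most of these genes. Of the 100 genes that fell in H2023, 61 were below 0 in A549, against 53.8% of all genes. There 28 were called lower and 15 higher, where 8.83% and 6.52% of all genes were so called. Of the 47 that rose, 22 were above 0, against 46.0%, with 7 called higher and 8 lower. A549 gave 2799 calls (15.4%) in all. The 100 and the 47 were picked by H2023 values that also enter the difference between the lines. Their counts in its test are therefore no separate evidence. The test of the difference between the lines called 2241 of 18227 genes (12.3%), among them 62 of the 100 and 28 of the 47. Without replicate 1 or 2 of the H2023 libraries labelled knockout it called 844 or 683 genes, and without H2023 wild-type replicate 2 it called 1206.

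TM4SF20, TC2N, F5, MUC5B and GPX2 were called lower in both lines, and GPX2 stood at 269.6 and 301 TPM in A549 wild type and at 5.94 and 6.53 TPM in the A549 libraries labelled knockout. SPOCK1, KCNMA1, AXL and CD70, a ligand of the TNF family, were called higher in both. EPHX1 went opposite ways, at 110.4 and 119 TPM in A549 wild type against 211 and 241 TPM (line difference -2.47), as did ITGA4, at 0.45 and 0.24 TPM against 7.43 and 9.07 TPM. ACKR3 also rose in A549, from 0.00 and 0.13 to 11.7 and 18.8 TPM. ZC3H12A was lower in the A549 libraries labelled knockout, at 16.9 and 19.9 TPM against 30.7 and 34.9 TPM in wild type, and its line difference was 1.34 ± 0.17 (limma adjusted p = 0.00483). Each line is represented by its own clone, so line and clone cannot be told apart here.

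**Figure D5:**
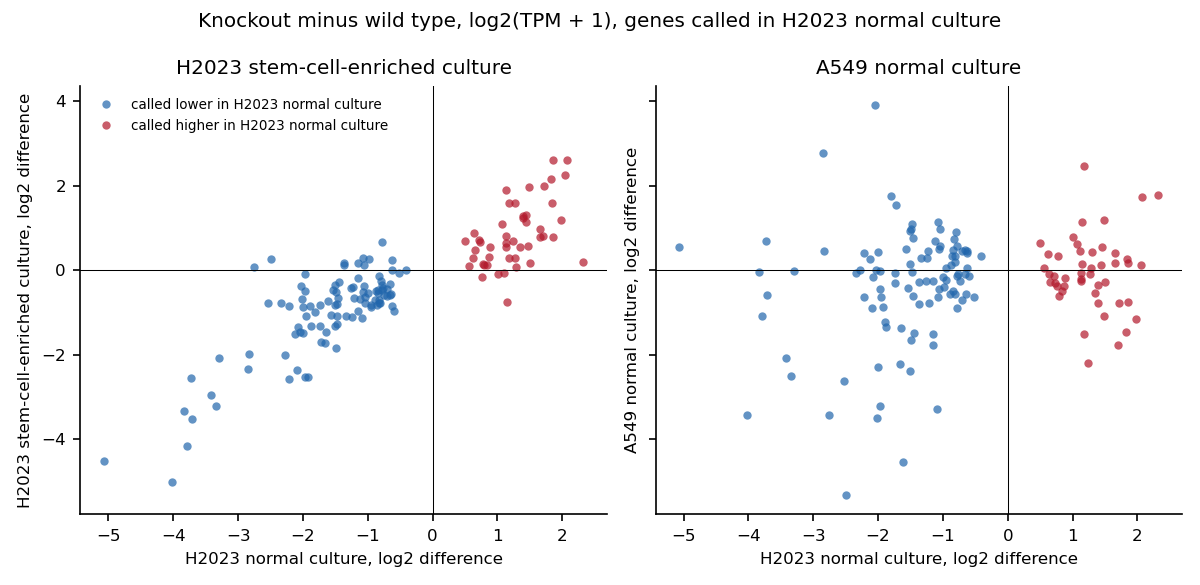
The 147 called genes, with the difference in H2023 normal culture on the x axis and the difference in H2023 stem-cell-enriched culture (left) or A549 normal culture (right) on the y axis, all in log2(TPM + 1). In the left panel 88 of 100 blue points lie below 0 and 43 of 47 red points above 0, and in the right panel 61 and 22 do.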

How the data were processed

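The authors deposited 1 table for each line and culture, and the H2023 normal-culture table gives TPM for 4 libraries. Libraries were stranded TruSeq mRNA, per the labels' protocols. HISAT2, StringTie and GRCh38 are named in the submitters' processing notes, without roles or versions. The table also holds the authors' log2 fold change, a test score, p-values and a mean normalized count, under DESeq2's column names per the file headers. Of these only the adjusted p-value was used, and directions came from TPM. The name of each table gave the line. The first of rows with a repeated identifier and identical values was kept, leaving 18227 genes, of which 17996 were matched to GENCODE annotation of GRCh38 for position. Symbols were missing for 1770. No other column of sample values was left out (0).

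TPM is not a count and depth is unknown, so differences of log2(TPM + 1) were tested with limma 3.58.1 in R 4.3.3 (trended variance, two-sided, Benjamini-Hochberg adjustment over all genes, threshold 0.05). Fitted were the 8 H2023 libraries in 4 groups, chosen knowing that the 4 libraries alone gave 0 calls. Culture differences (stem-cell-enriched minus normal) used the same fit. Line differences (H2023 minus A549) used the 8 normal-culture libraries of both lines, and the A549 values came from the A549 libraries. The test was checked on simulated data.

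The genes and lists were chosen with earlier results of these data known, so lists are described by counts and medians without a test. Named were ZC3H12A, the 12 called genes with the largest rise and fall, of each list up to 4 called members or else the 2 most abundant, the 6 largest line or culture differences each way, and the 6 most abundant called genes each way with a difference of at least 1. The 12 each way were taken from called genes with a symbol whose groups did not overlap. Other genes, called or not, were named after their values were seen. Alternatives changed the libraries fitted, pseudocount, filter, trend, scaling and replicate block, and left out each of the 4 H2023 normal-culture libraries. The other libraries of the fits were not left out in turn. Some genes are not reported here.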

Additional observations from a re-analysis of the deposited data

Results flagged for a closer look

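The knockout effect differed between H2023 and A549 in normal culture for 2241 genes (limma, adjusted p under 0.05 for H2023 minus A549). Each line has 1 clone, and clone and line cannot be told apart. Among the genes with the largest changes in H2023, line differences were negative for HPD (-5.62), ITGA4 (-5.63), ANXA10 (-4.43), NLRP1 (-3.80), NRCAM (-3.30), BST2 (-3.29), PPARGC1A (-3.12), CNTN1 (-2.70) and F5 (-1.33). They were positive for MEG3 (3.48), TM4SF18 (3.28), ISM1 (3.13), ZG16B (2.61), AGMO (2.49), LINC01193 (1.93), TSPAN5 (1.68), PCED1B-AS1 (1.58) and AFAP1L2 (1.48). These genes were picked by the H2023 values that enter the line difference, so the signs were largely set by that choice. In A549 wild type HPD (0.99 and 1.08 TPM), ANXA10 (3.46 and 1.91), NLRP1 (0.21 and 0.02), BST2 (0 and 0.16) and ITGA4 (0.45 and 0.24) were low. A fall of these genes could hardly show there. CNTN1 (109 and 94.0 TPM) and NRCAM (73.5 and 86.9) were not low, and PPARGC1A had 4.66 and 8.01 TPM. F5 also fell in A549, from 3.03 and 3.47 to 0 and 0 TPM.

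The largest line differences of all came mostly from A549. FXYD2, a subunit of the sodium pump, gave 9.80, with 0.52 and 4.50 TPM in H2023 wild type, 6.45 and 6.03 TPM in the H2023 libraries labelled knockout, 510 and 429 TPM in A549 wild type and 0.02 and 0.69 TPM in the A549 libraries labelled knockout. LCN2 (5.96), FGB (5.74), HLA-DMB (4.99), FGA (4.94) and LRATD2 (4.89) also lay far lower in the A549 libraries labelled knockout. On the other side were ACKR3 (-5.95), TSPAN7 (-5.66), NPY4R (-5.16) and MMP2 (-5.02), each higher in the A549 libraries labelled knockout. HPD and ITGA4, given above, were on this side too, and HPD differed by -5.06 in H2023 against 0.56 in A549. ACKR3 was called lower in H2023. TSPAN7 also lay lower there, at 21.2 and 25.4 TPM against 2.16 and 3.48 TPM (-2.68, limma adjusted p = 0.0655). In H2023 MMP2 had 44.9 and 46.8 TPM against 32.1 and 40.4 TPM.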

How the results depend on the processing

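The number of calls depended strongly on the setting. Against 147 calls (47 higher, 100 lower), the fit gave 546 (187 and 359) with all 16 libraries, 295 (92 and 203) at a mean of at least 1 TPM, 236 (79 and 157) with robust moderation, 116 with 26 higher at a pseudocount of 0.1, and 0 (0 and 0) with the 4 libraries alone. Leaving out 1 of the 4 H2023 normal-culture libraries gave 0 to 39 calls (0 to 5 higher, 0 to 34 lower). The authors' deposited table gives 1665 (591 and 1074). With window medians taken out, an alternative chosen after seeing the data, 111 were called. With the replicate block 34 were called (4 and 30), 25 of the 147 among them. The labels do not say what a replicate number marks, and the correlation of same-numbered deviations was 0.04 over 14449 genes, though the mitochondrial share was higher in replicate 2 than in replicate 1 in 8 of 8 groups. The culture difference gave 0 calls, and 1 (1 higher) with 16 libraries. The line difference gave 2241 calls (1256 higher, 985 lower) and 683 to 1961 (372 to 1015 higher, 311 to 946 lower) without 1 library. The 145 called genes with a symbol kept their direction in each alternative that tested them (131 at a mean of at least 1 TPM). Of genes not called, TFRC ran from -0.038 to 0.25, B2M from -0.037 to 0.11 and NQO1 from -0.22 to 0.057 without 1 library, and B2M gave -0.10, HLA-C -0.12 and KEAP1 -0.025 with window medians taken out. The cause of these changes was not tested beyond the number of samples or genes in each fit. Depth per library is unknown, so values near 0 have no floor.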
